A study of Homo sapiens with 6 samples.

Results

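The genes of oxidative phosphorylation were followed in Ker-CT keratinocytes after siRNA against KMT2C. A gene was taken when its row was protein-coding and its symbol began with one of the family names of the subunits of respiratory complexes I to V, or was SDHA, SDHB, SDHC, SDHD, CYC1 or MT-CYB. This gave 111 of the 58302 rows of the count table. Of these, 88 were nuclear-encoded subunits: 37 of complex I, 4 of complex II, 10 of complex III, 19 of complex IV (with NDUFA4 and NDUFA4L2 placed there) and 18 of complex V, the ATP synthase. A further 13 were the protein-coding genes of mitochondrial DNA. The prefixes also took 8 complex I assembly factors (NDUFAF genes) and 2 read-through genes, which are kept apart. Another 157 rows had a matching symbol but were not protein-coding, 150 of them processed pseudogenes, and were left out.

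Ker-CT is a line of human keratinocytes that telomerase and CDK4 keep dividing. The 3 siKMT2C libraries came from cells given siRNA against KMT2C, a histone H3 lysine 4 methyltransferase, and the 3 siNC libraries from cells given negative-control siRNA. The cells of all 6 samples were exposed for 24 h to M5 and come from 1 cell line. M5 is a mixture of TNF-α, oncostatin M, IL-22, IL-17A and IL-1α at 10 ng/ml each that serves as a psoriasis-like stimulus. KMT2C was at 523, 479 and 444 counts in the siKMT2C libraries and at 1536, 1185 and 1290 in the siNC libraries, a log2 fold change of -1.43 (SE 0.14, adjusted p = 0.00786 in edgeR's quasi-likelihood test, Benjamini-Hochberg over all genes). The labels do not say whether replicates were separate cultures, so p-values measure only the spread between these samples.

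Complex I takes electrons from NADH and complex II takes them from succinate. Both pass them through ubiquinone to complex III, from there through cytochrome c to complex IV and oxygen, and the proton gradient that builds up drives ATP synthesis by complex V. Most subunits are encoded in the nucleus and imported, whereas mitochondrial DNA encodes core membrane subunits of complexes I, III, IV and V, and none of complex II, so an intact chain needs both genomes. In epidermis, basal keratinocytes carry active mitochondria, and these are cleared when the cells cornify.

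Nuclear subunit genes are known for promoters with motifs of NRF1, of ETS factors such as GABP and of YY1. Promoter windows from RefSeq (GRCh38.p14, 250 bases before to 50 after a start site) matched 69 of the 88 nuclear-encoded subunits, with 82 windows. The NRF1-type letters GCGCATGC, searched on both strands, stood in 18.3% of these windows and in 3.05% of all 35116 windows of the same length. The ETS-type letters CCGGAAG stood in 26.8% against 10.3%, and the YY1-type letters ATGGCGGC in 15.9% against 3.0%. Among windows of tested protein-coding genes the shares were 4.68%, 17.1% and 5.43%. In complex II, 2 of the 3 genes with a window held both the NRF1 and the ETS letters, and in complex V 6 of 13 genes held the ETS letters. The median log2 fold change was 0.10 for the 14 tested subunits with the NRF1 letters and 0.11 for the 51 without, 0.11 for the 21 with the ETS letters and 0.11 for the 44 without, and -0.04 for the 12 with the YY1 letters and 0.13 for the 53 without. These medians were not tested. A match is only a run of letters and shows no binding.

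The following stretches are shown because the complex II genes SDHB and SDHD and the rotor gene ATP5MC2 were among the members with values higher in the siKMT2C libraries. They run 5′ to 3′ on the strand of the gene and lie before the start site of their window, with the matched letters in capitals. In SDHD a direct and a reversed NRF1 match overlap.
SDHB, NRF1 letters, chr1:17054214-17054243, minus strand: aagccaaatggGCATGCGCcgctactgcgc
SDHB, ETS letters, chr1:17054143-17054171, minus strand: cacccgggaaaCCGGAAGccgcctcccac
SDHD, NRF1 letters, chr11:112086752-112086783, plus strand: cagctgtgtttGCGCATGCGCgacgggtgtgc
SDHD, ETS letters, chr11:112086785-112086813, plus strand: ccgcctctcgaCTTCCGGttcacccagca
ATP5MC2, NRF1 letters, chr12:53676370-53676399, minus strand: gtgtgacgactGCGCATGCtcggaaagggg

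The libraries held 14409277 to 17539519 counts. All 8 keratinocyte markers were present in every library, with a summed level of 13840 to 19320 CPM (counts scaled to library size) in siKMT2C and 14500 to 21480 CPM in siNC. Of these 8, 6 had a log2 fold change below 0 (median -0.35), 3 had no overlap between groups, and none was called. TYR, DCT, PTPRC, CD3E, HLA-DRA, PECAM1 and CDH5, which mark melanocytes, leukocytes and endothelium, had no count. The 5 melanocyte markers summed to 2.03 to 3.06 CPM in siKMT2C and 2.31 to 3.38 CPM in siNC, and 2 of them were above 0 in every library. The 5 leukocyte markers summed to 0.123 to 0.321 CPM and 0.969 to 1.07 CPM, without overlap, from CD14 chiefly (log2 fold change -2.23, SE 0.43, adjusted p = 0.0534). Fibroblast markers summed to 13.2 to 17.3 CPM in siKMT2C and 20.4 to 30.4 CPM in siNC. The part of these differences in the results was not tested. In bulk RNA, fewer cells expressing a gene and less RNA per cell cannot be told apart. The third replicates of both groups stood apart from the other 4 libraries in many members, as described further on, so results are also given without them.

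Of the 111 genes, 103 passed the filter on low counts and 1 passed the test. Over all 15063 genes tested, 226 (1.5%) were called at an adjusted p under 0.05, 0.69% higher and 0.81% lower in siKMT2C. The count of called members was 0 when any 1 library other than siNC replicate 3 was left out and 2 without that library. At an unadjusted p under 0.05 there were 10 members (9.71%), against 16.9% of all genes. All 10 were higher in siKMT2C, where all genes had 7.91% higher and 9.01% lower. The groups did not overlap in 17 members (16.5%), 16 of them higher and 1, UQCRC1, lower in siKMT2C, against 24.1% of all genes (11.8% higher and 12.3% lower). A difference of 1.5-fold or more was seen in 2 members (1.94%) and in 14.0% of all genes. It was seen in 7.66% of genes in the same count range as the nuclear-encoded members. The share of members called or without overlap was thus near or under that of all genes.

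The direction leaned one way in the nuclear set. Of 81 tested nuclear-encoded subunits, 55 (67.9%) had a log2 fold change above 0, with a median of 0.11, whereas over all genes 49.7% were above 0 and the median was -0.00. In genes of the same count range the share was 51.2% and the median 0.01. The count of nuclear-encoded subunits above 0 depended on the setting. It was 47 of 81 without siKMT2C replicate 3, 51 with library size alone and 63 without siKMT2C replicate 1. The 13 mitochondrially encoded genes had 5 above 0 and a median of -0.06, which ranged from -0.21 (2 of 13 above 0, without siNC replicate 3) to 0.05 (without siKMT2C replicate 3) as single libraries were left out. It was -0.17 without siKMT2C replicate 2, 0.02 without siNC replicate 2, and -0.17 with 1 of 13 above 0 after correction for GC content and length. Over the settings tried, the median of complexes I, III and IV reached -0.00, -0.01 and -0.00 at its lowest. The mitochondrially encoded genes share a transcription unit on each strand and so are not independent of each other. No test was made of these medians or of differences between complexes.

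**Figure D1:**
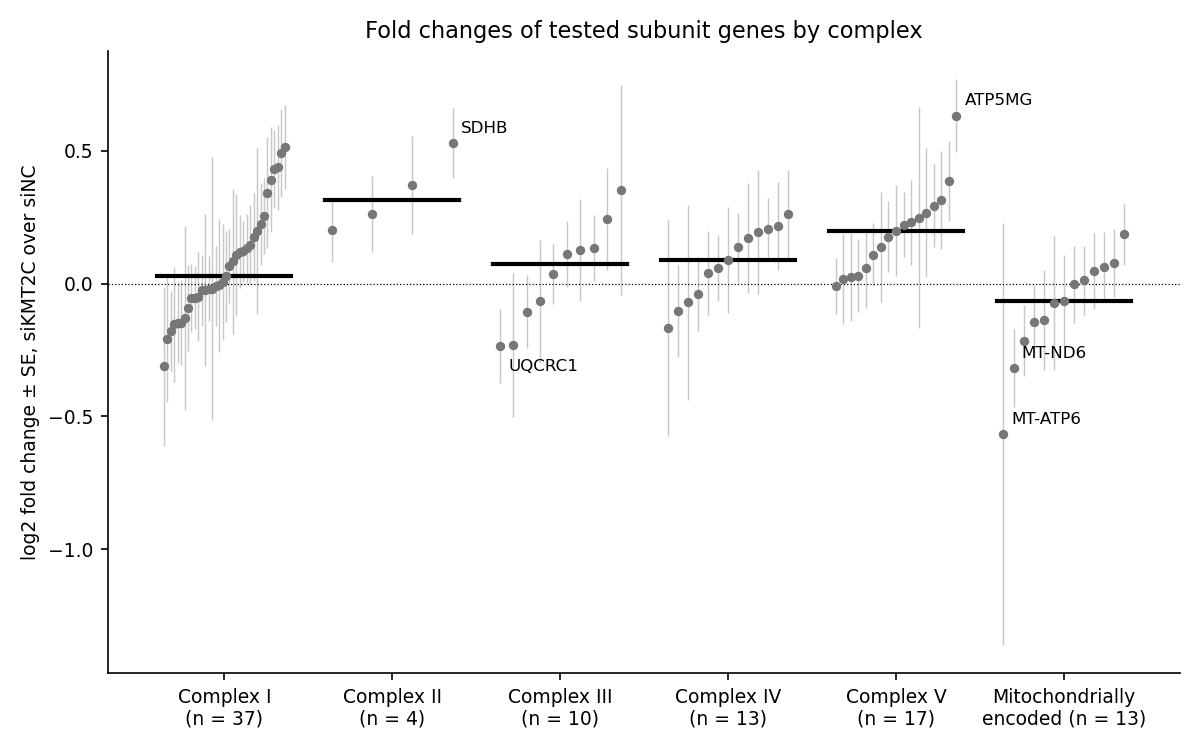
Log2 fold change (siKMT2C over siNC, vertical axis) of tested subunit genes, grouped by complex, with error bars of 1 SE and a black line at the median. Points are shown for 36 of the 37 complex I genes and for every tested gene of the other sets, and medians are over all tested genes. They are 0.03, 0.32, 0.07, 0.09 and 0.20 for complexes I to V and -0.06 for the mitochondrially encoded genes, and the SE of MT-ATP6 is 0.79.

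Complex I was spread around 0: 20 of 37 genes were above 0 and the median was 0.03. It was 0.14 without siNC replicate 3 (26 of 37 above 0), 0.13 without siKMT2C replicate 2 and 0.10 without siKMT2C replicate 1 (25 of 37). By module, 3 of 8 genes of the NADH-oxidising module, 3 of 8 of the ubiquinone module and 14 of 21 of the membrane arm were above 0. NDUFV1, which binds FMN and takes electrons from NADH, had a log2 fold change of 0.01 (SE 0.22), and NDUFS1, its largest iron-sulfur partner, -0.05 (SE 0.12).

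Several accessory subunits had small p-values without passing the test. NDUFB6, of the membrane arm, was at 45.7, 59.0 and 49.2 CPM in siKMT2C and 39.9, 31.2 and 36.6 CPM in siNC (log2 fold change 0.51, SE 0.16, adjusted p = 0.158). NDUFA7, of the peripheral arm, was at 29.7, 25.9 and 26.9 CPM against 15.9, 21.2 and 21.6 CPM (0.49, SE 0.17, adjusted p = 0.189). NDUFAB1, the mitochondrial acyl carrier protein, was at 68.4, 84.6 and 75.2 CPM against 62.5, 57.0 and 49.6 CPM (0.43, SE 0.15, adjusted p = 0.192). In all 3 genes every siKMT2C library was above every siNC library. NDUFA7 shares 32.3% of its exon bases with another gene, so its counts are less certain.

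NDUFA8 showed the same arrangement (0.44, SE 0.16, adjusted p = 0.216), and so did the assembly factors NDUFAF2 (0.48, SE 0.15, adjusted p = 0.171) and NDUFAF3 (0.36, SE 0.12, adjusted p = 0.192). These 3 were chosen after their values were seen, for an unadjusted p under 0.05, and NDUFAF3 shares 21.7% of its exon bases with DALRD3 on the other strand. The remaining assembly factors ranged from -0.25 (NDUFAF7) to 0.30 (NDUFAF4). The abundant complex I gene NDUFS5 was at 148.7 ± 13.6 against 135.6 ± 11.1 CPM (SD, n = 3 each; log2 fold change 0.13, SE 0.13), with overlapping groups, and NDUFB7 at 48.5 ± 13.8 against 49.2 ± 17.3 CPM differed by less than the spread between replicates.

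In complex II, which reduces ubiquinone with electrons from succinate and also serves the citric acid cycle, all 4 genes had values above 0. None passed the test. SDHB, the iron-sulfur subunit, was at 101.6, 97.8 and 99.0 CPM in siKMT2C and 70.3, 76.0 and 60.4 CPM in siNC (log2 fold change 0.53, SE 0.13, adjusted p = 0.0983). SDHA, the flavoprotein that oxidises succinate, was at 160.0, 146.1 and 188.7 CPM against 120.1, 103.6 and 159.0 CPM (0.37, SE 0.19, adjusted p = 0.365). The groups did not overlap for SDHB, while for SDHA siNC replicate 3 lay within the siKMT2C range.

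The membrane anchors had smaller values. SDHC was at 167.9, 164.9 and 167.2 CPM in siKMT2C and 159.8, 141.3 and 133.9 CPM in siNC (0.20, SE 0.12, adjusted p = 0.449), without overlap. SDHD was at 81.3, 82.9 and 77.9 CPM against 58.4, 65.2 and 78.3 CPM (0.26, SE 0.14, adjusted p = 0.411), and siNC replicate 3 again reached the siKMT2C level. The median of the 4 genes was 0.32, and across the settings tried it lay between 0.24 and 0.42 with 4 of 4 above 0 in each. SDHB was called with DESeq2 (adjusted p = 0.0243) and SDHC with a correction for GC content and length (adjusted p = 0.0292). That correction took a transcript length of 13566 bases for SDHC and moved its value to 0.39. It moved SDHA to 0.42, SDHB to 0.43 and SDHD to 0.12. With any single library left out, neither SDHB nor SDHC was called in edgeR (adjusted p 0.0729 to 0.340 for SDHB and 0.342 to 0.711 for SDHC).

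**Figure D2:**
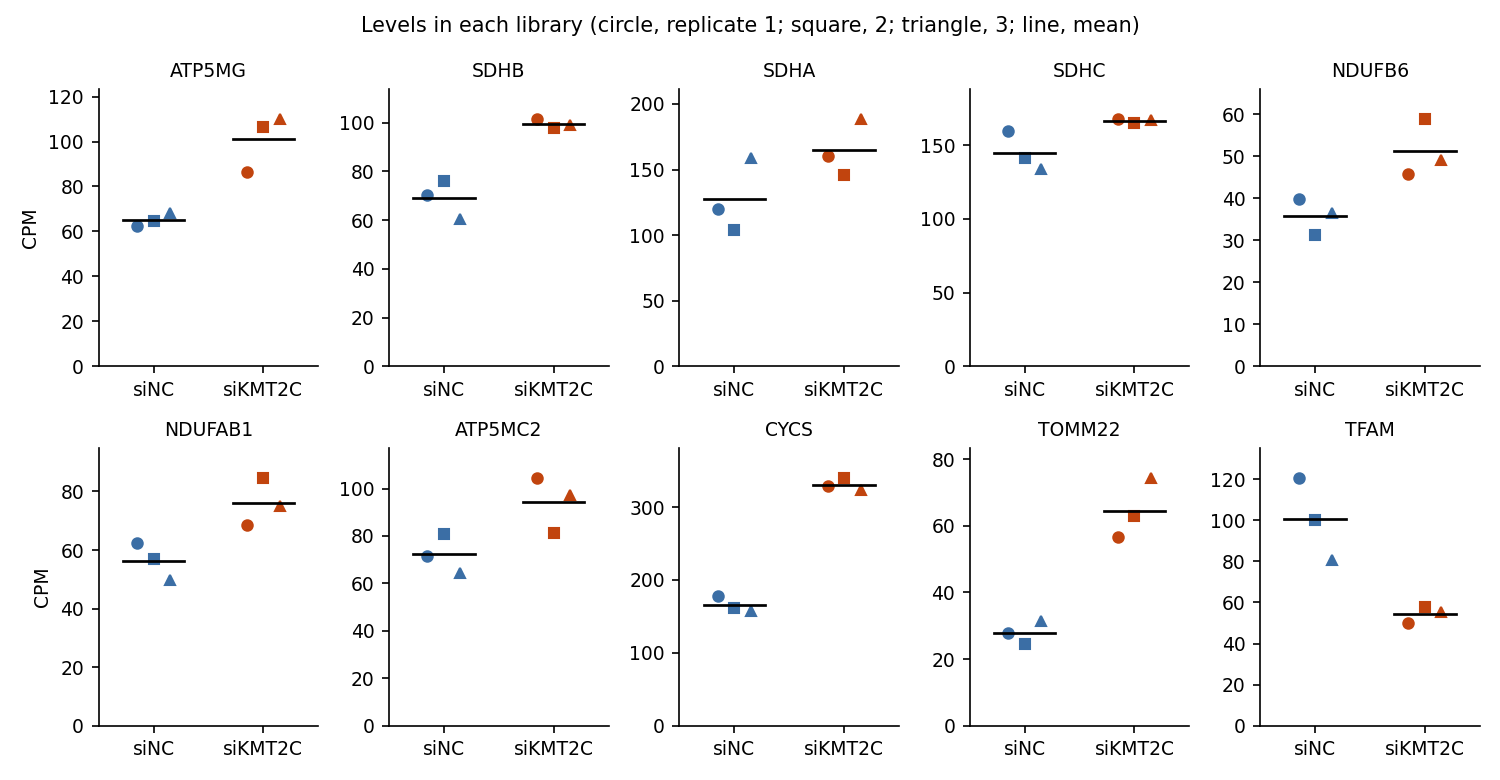
CPM (vertical axes, from 0) in each of the 3 siNC (blue) and 3 siKMT2C (red) libraries for 7 subunit genes and for CYCS, TOMM22 and TFAM, with the mean of each group as a line. The groups are separate in ATP5MG, SDHB, SDHC, NDUFB6, NDUFAB1, ATP5MC2, CYCS, TOMM22 and TFAM, and overlap in SDHA.

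Complex III gave no called gene, with 6 of 10 above 0 and a median of 0.07. UQCRC1, a core protein, was the member whose siKMT2C values (205.7, 214.3 and 214.8 CPM) were all below its siNC values (223.5, 228.6 and 294.5 CPM), with a log2 fold change of -0.23 (SE 0.14, adjusted p = 0.449). Its partner UQCRC2 was at 0.11 (SE 0.12), the Rieske iron-sulfur protein UQCRFS1 at 0.13 (SE 0.12) and the accessory subunit UQCRQ at 0.04 (SE 0.11). The hinge protein UQCRH was at 0.24 (SE 0.19) and its retrocopy UQCRHL at 0.35 (SE 0.40), and reads may have been split between these near-identical copies.

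Complex IV likewise gave no called gene among 13 tested, with 9 above 0 and a median of 0.09. COX7A2, a small accessory subunit, was the 1 gene without overlap: 76.0, 82.2 and 79.2 CPM in siKMT2C against 69.0, 66.7 and 70.2 CPM in siNC (log2 fold change 0.21, SE 0.12, adjusted p = 0.424). COX7B was at 0.26 (SE 0.17), COX6C at 0.22 (SE 0.16) and COX7A2L, which takes part in supercomplexes, at 0.14 (SE 0.13). Their groups overlapped.

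The tissue isoforms of complex IV were those of a non-muscle cell. Levels between genes are given as the deposited FPKM, which are per length, with the limit that the gene lengths they imply are long (a median of 4035 bases for tested nuclear subunits, against 1257 bases for transcripts in GENCODE). COX4I1 was at a mean of 5.98 FPKM over the 6 libraries, COX6A1 at 79.8, COX6B1 at 55.1, COX7A2 at 19.8 and COX8A at 240.4 FPKM. In CPM the first and last were closer, with COX4I1 at a mean of 90.8 in siKMT2C and 87.1 in siNC. COX8A was at 129.4 and 114.9 CPM, so these 2 genes differ in FPKM mainly through the implied lengths. The heart and muscle isoform COX6A2 had no count in any library, where the floor of 3 counts corresponds to 0.171 to 0.208 CPM. COX4I2 had 1 count in all, COX7A1 at most 2 counts in a library, and the testis isoforms COX6B2 and COX8C at most 10 and 2. NDUFA4 was at 33.6 FPKM and its hypoxia-inducible relative NDUFA4L2 at 0.247 FPKM. In the tested isoforms the difference between groups was small: the log2 fold change was 0.06 (SE 0.12) for COX4I1, 0.09 (SE 0.20) for COX6A1, 0.20 (SE 0.23) for COX6B1, 0.17 (SE 0.21) for COX8A, -0.10 (SE 0.17) for NDUFA4 and -0.17 (SE 0.41) for NDUFA4L2. No shift between isoforms was detectable at this depth.

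Complex V, the ATP synthase, had 16 of 17 tested genes above 0 and a median of 0.20, and none passed the test. ATP5MG, subunit g of the membrane part, was at 86.7, 106.6 and 110.1 CPM in siKMT2C and 62.6, 64.7 and 68.4 CPM in siNC. The groups were well apart, with a log2 fold change of 0.63 (SE 0.14, 95% interval 0.31 to 0.95) and an adjusted p of 0.0702 in edgeR. It was called with DESeq2 (adjusted p = 0.00579) and without siNC replicate 3 (adjusted p = 0.0462).

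All 8 tested genes of the membrane part Fo were above 0, with a median of 0.27. Of these, 3 genes encode the same mature subunit c of the rotor ring: ATP5MC2 was at 104.5, 81.5 and 97.3 CPM against 71.5, 80.7 and 64.4 CPM (0.39, SE 0.15, adjusted p = 0.242), ATP5MC1 had 0.29 (SE 0.16) and ATP5MC3 0.02 (SE 0.17). Their levels were 11.5, 8.59 and 16.0 FPKM. The small subunits ATP5MPL, now named ATP5MJ, and ATP5MD, now named ATP5MK, were at 0.22 (SE 0.12) and 0.31 (SE 0.18). The F1 head had a median of 0.14 over 5 genes, and the catalytic subunit ATP5F1B, the complex V gene with the highest FPKM, was at 422.1 ± 22.8 CPM in siKMT2C and 425.2 ± 5.13 CPM in siNC (SD, n = 3 each). Without both replicate 3 libraries, 12 of 17 complex V genes were above 0 and the median was 0.11.

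Each complex was also summarised per library as the mean over its genes of log2 CPM centred on each gene's mean. For complex II the siKMT2C libraries lay between 0.13 and 0.21 and the siNC libraries between -0.22 and -0.11, and for complex V between 0.06 and 0.14 and between -0.15 and -0.06. These 2 complexes did not overlap between groups, and complexes I, III, IV and the mitochondrially encoded genes did. No p is given for these scores.

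**Figure D3:**
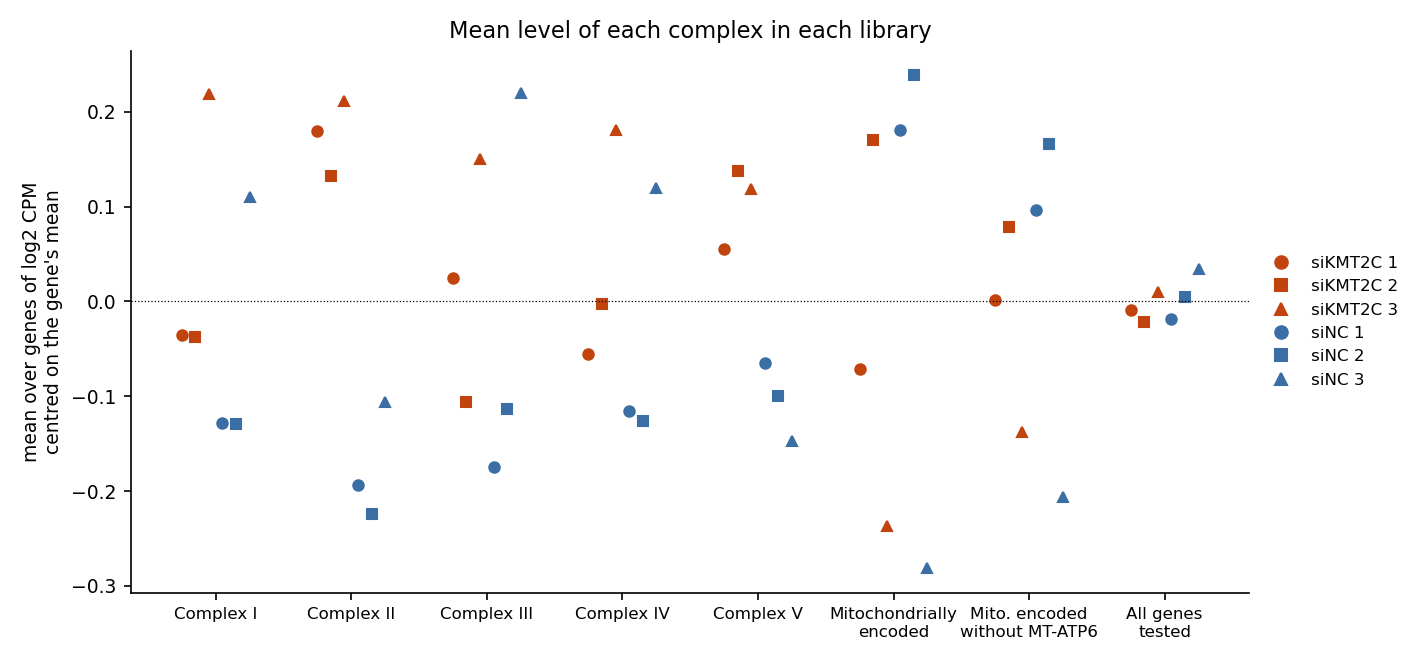
Mean centred log2 CPM (vertical axis) of the tested genes of each complex in each library, with red for siKMT2C, blue for siNC and the symbol for the replicate number. Complexes II and V separate by group, while in complexes I, III and IV the third replicates (triangles) of both groups lie highest and in the mitochondrially encoded genes lowest.

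The third replicates of both groups stood apart in the members more often than in all genes. In 29 of 81 nuclear-encoded subunits (35.8%) the third replicates of both groups were above all of the other 4 libraries, compared with 16.7% of all genes. This held for 16 of 37 complex I genes and 7 of 13 complex IV genes, and for 0 of 4 complex II genes and 2 of 17 complex V genes. In the mitochondrially encoded set, 9 of 13 (69.2%) had both replicate 3 libraries below the other 4, against 15.1% of all genes. As these 13 genes share transcription units, they are not separate observations.

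NDUFA13 of complex I, also known as GRIM-19, was at 31.4, 26.3 and 67.9 CPM in siKMT2C and 27.4, 25.2 and 74.4 CPM in siNC. COX5B of complex IV was at 63.2, 57.0 and 108.8 CPM against 59.4, 54.8 and 126.1 CPM, and ATP5MF of complex V at 43.9, 32.3 and 60.1 CPM against 22.8, 25.7 and 66.2 CPM. These genes were picked after their values were seen. In each, the third replicate of both groups was the highest of its group, and the group means differed by less than the spread within a group. Over the 81 genes, the difference of the third replicates from the rest had a Spearman rho of 0.49 with transcript GC content and of -0.28 with transcript length. The points share the 6 libraries, and the part of GC content or RNA quality in it was not tested.

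With both replicate 3 libraries left out, 2 members were called. Among them was NDUFA6, an accessory subunit of complex I, with a log2 fold change of -0.69 (adjusted p = 0.0433, edgeR). NDUFA6 was at 24.8, 24.4 and 52.5 CPM in siKMT2C and 41.6, 37.0 and 47.5 CPM in siNC, so siKMT2C replicate 3 lay above all siNC libraries, and with all 6 libraries the value was -0.31 (SE 0.30, adjusted p = 0.663). The nuclear median without the third replicates was 0.09, with 26 of 37 complex I genes above 0, and the mitochondrial median -0.09.

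**Figure D4:**
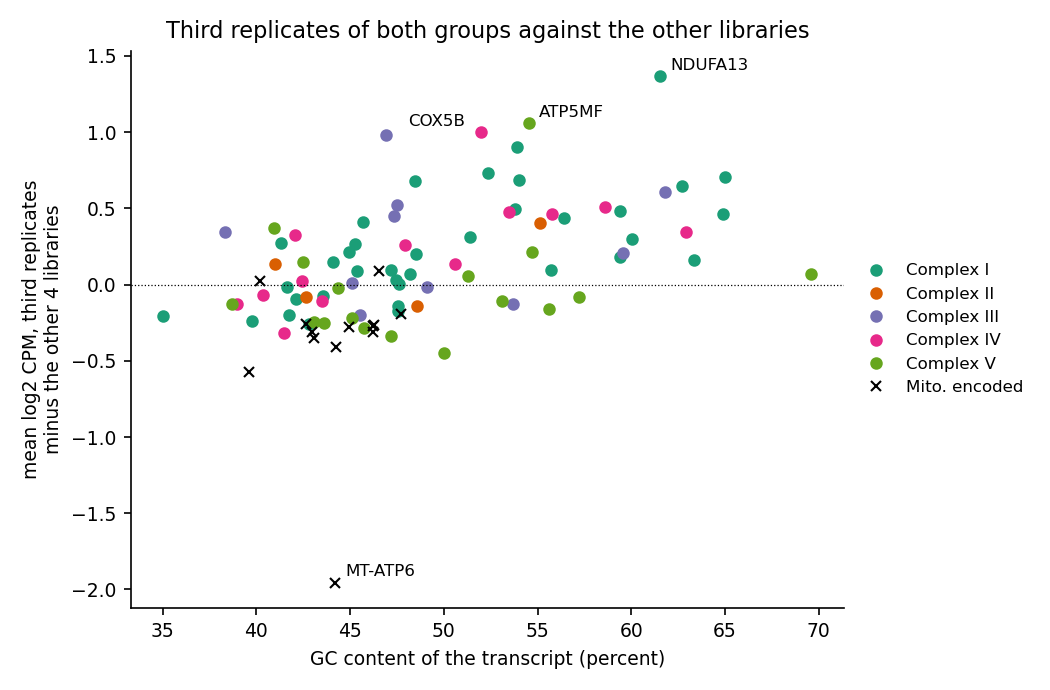
Difference in mean log2 CPM between the third replicates of both groups and the other 4 libraries (vertical axis) against the GC content of the transcript in percent (horizontal axis), for the same tested subunit genes. NDUFA13, ATP5MF and COX5B lie near the top and MT-ATP6 lowest.

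The 13 mitochondrially encoded genes took 4.32% to 5.94% of all counts of a library, and the 88 nuclear-encoded subunits 0.690% to 0.813%. The ratio of the 2 sums was 6.80, 7.71 and 5.45 in siKMT2C and 7.88, 8.60 and 5.68 in siNC. The groups overlapped, and the third replicate was lowest in both. In FPKM, the mitochondrially encoded genes ranged from 1052 (MT-ND5) to 12148 (MT-CO2). The nuclear-encoded genes that passed the filter ranged from 0.247 (NDUFA4L2) to 240.4 (COX8A), and those that did not pass were lower.

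MT-ND6, the 1 protein of the light-strand transcript and a complex I subunit, had the smallest p of the set. It was at 475.0, 587.8 and 434.8 CPM in siKMT2C and 660.1, 649.0 and 557.8 CPM in siNC, with siKMT2C replicate 2 above siNC replicate 3. The log2 fold change was -0.32 (SE 0.15, adjusted p = 0.324). It was called after correction for GC content and length (-0.44, adjusted p = 0.0333), and since strand was not stated, reads of the opposite strand cannot be told apart. Cytochrome b, MT-CYB, was at -0.22 (SE 0.13) and MT-ND5 at -0.14 (SE 0.14). MT-ND3 had higher values in siKMT2C without overlap (860.4, 864.4 and 942.2 against 734.2, 856.8 and 753.3 CPM; 0.19, SE 0.11, adjusted p = 0.467). The oxidase subunits MT-CO1 (0.06, SE 0.13) and MT-CO2 (0.05, SE 0.14) differed by less than their SE, and their sign flipped with a correction for GC content and length.

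MT-ATP6, subunit a of the proton channel of ATP synthase, varied most of all members. It had 29407, 130638 and 21066 counts in siKMT2C and 139583, 108080 and 27442 in siNC, or 1798, 8392 and 1294 CPM against 7986, 7481 and 1545 CPM. It was low in siKMT2C replicates 1 and 3 and in siNC replicate 3 and high in the other 3, so the split did not follow the groups. The highest library was 6.49 times the lowest, and the log2 fold change was -0.57 (SE 0.79, adjusted p = 0.777). Among 2121 tested genes with a mean of at least 100 CPM, 6 had a ratio this large or larger, MT-ATP6 included, and the median ratio of all 2121 genes was 1.49. The other 12 mitochondrially encoded genes had ratios of 1.25 to 2.05.

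MT-ATP6 lies at chrM:8527-9207 and shares 46 bases with MT-ATP8 at its start and 1 base with MT-CO3 at its end. MT-ATP8 was at 984.1, 1207 and 962.0 CPM in siKMT2C and 1388, 1249 and 676.4 CPM in siNC, so the same 3 libraries were high and the same 3 low, over a smaller range (2.05 between highest and lowest). MT-CO3 did not show this split, and the ratio of MT-ATP6 to MT-CO3 counts was 0.271, 1.49 and 0.206 in siKMT2C and 1.56, 1.20 and 0.248 in siNC. The nuclear pseudogene copy MTATP6P1 had 15568, 18592 and 12563 counts against 22470, 16645 and 13966, and in CPM (952.1, 1194 and 771.7 against 1286, 1152 and 786.4) it too was higher in those 3 libraries. MT-ND4L separated them as well, at 781.2, 852.6 and 807.3 CPM against 1045, 1001 and 637.7 CPM. MT-ND2, MT-CO2, MT-ND4, MT-ND5, MT-ND6, MT-CYB and the pseudogene copy MTND2P28 were also higher in those 3 libraries than in the others. MT-ND1, MT-CO1 and MT-ND3, like MT-CO3, did not separate them. The split was thus not limited to MT-ATP6 and its neighbours, and was widest in MT-ATP6. Without MT-ATP6 the mitochondrially encoded share was 4.16% to 5.19% of counts. Whether counting or mapping differed between libraries was not tested.

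**Figure D5:**
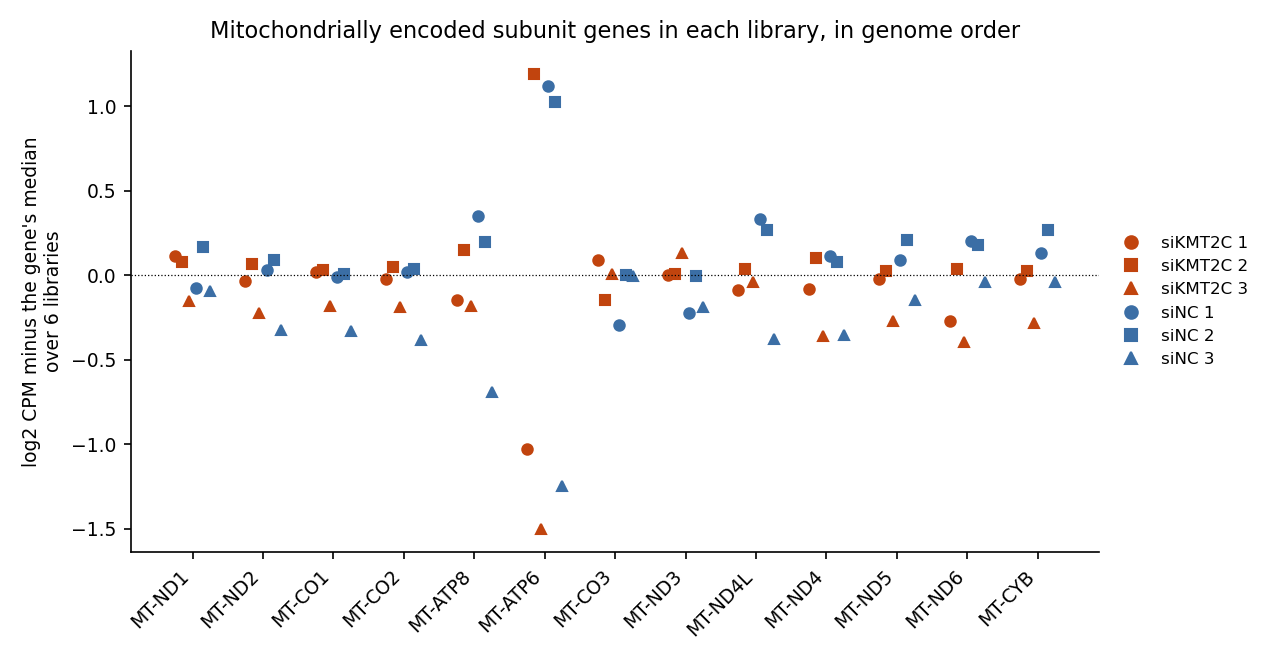
Log2 CPM of each mitochondrially encoded gene minus its median over the 6 libraries (vertical axis), in genome order, with red for siKMT2C, blue for siNC and the symbol for the replicate number. MT-ATP6 splits into 3 high and 3 low libraries that cross the groups. All other genes except MT-ND1, MT-CO1, MT-CO3 and MT-ND3 separate the same libraries over a smaller range.

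Outside the complexes, 3 of 223 tested genes of the pathway lists were called, each higher in siKMT2C. This was 1.35%, against 1.5% of all genes called in either direction and 0.69% called higher. CYCS, cytochrome c, which carries electrons from complex III to complex IV, was at 328.3, 340.0 and 323.9 CPM in siKMT2C and 177.9, 161.5 and 157.5 CPM in siNC (log2 fold change 1.00, SE 0.11, adjusted p = 0.0118, edgeR). PDSS2, needed for the side chain of ubiquinone, was at 31.6, 35.8 and 34.6 CPM against 21.1, 20.5 and 20.7 CPM (0.71, SE 0.13, adjusted p = 0.0450). TOMM22, a receptor of the outer-membrane import complex, was at 56.5, 63.0 and 74.4 CPM against 27.9, 24.5 and 31.5 CPM (1.21, SE 0.16, adjusted p = 0.0195). In all 3 genes the groups were far apart. With 1 library left out, CYCS stayed called only without siNC replicate 1 or siNC replicate 3. TOMM22 and PDSS2 stayed called only without siNC replicate 3. With each of the other libraries left out the calls were lost (adjusted p up to 0.0953, 0.104 and 0.189 for CYCS, TOMM22 and PDSS2, edgeR). Over all these fits the log2 fold changes were at least 0.95, 1.10 and 0.67. PDSS2 was also not called without a filter (adjusted p = 0.0540, edgeR).

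TFAM, which packages mitochondrial DNA and starts its transcription, was at 49.97, 57.9 and 55.3 CPM in siKMT2C and 120.7, 100.4 and 80.9 CPM in siNC. Its groups did not overlap, and it narrowly missed the test (log2 fold change -0.89, SE 0.17, adjusted p = 0.0508). It was called without siNC replicate 3 (-1.03, adjusted p = 0.0118, edgeR) and without both replicate 3 libraries (-1.04, adjusted p = 0.0162, edgeR). With any other single library left out it was not called (-0.93 to -0.74, adjusted p 0.106 to 0.244, edgeR). DESeq2 with all libraries called it (adjusted p = 0.000763). With all libraries in edgeR, no gene among 33 of mitochondrial RNA and DNA maintenance was called, TFAM included. The list's median was -0.00.

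A further 4 lists gave no call. The mitochondrial ribosome had 54 of 78 genes above 0 (median 0.12), the assembly factors outside the prefixes 30 of 45 (0.07), the citric acid cycle and pyruvate dehydrogenase 9 of 17 (0.02) and the regulators of mitochondrial biogenesis 7 of 11 (0.06). In these 4 lists 6, 7, 3 and 1 genes had an unadjusted p under 0.05 (edgeR), or 7.69%, 15.6%, 17.6% and 9.09%, against 16.9% of all genes. Among electron carriers and coenzyme Q genes 12 of 19 were above 0 (0.14), and among carriers and import 15 of 20 (0.10). Of the regulators, YY1 had the highest value at 0.53 (SE 0.24, adjusted p = 0.315). With 1 library left out the YY1 value ranged from 0.35 (without siNC replicate 2) to 0.88 (without siNC replicate 1), and YY1 was not called in any setting. NRF1 was at 0.06 (SE 0.19), GABPA at 0.11 (SE 0.24) and the PGC-1 relative PPRC1 at 0.40 (SE 0.13, adjusted p = 0.183). PPARGC1A had 1 count in 1 library.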

How the data were processed

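RNA of 6 Ker-CT samples was sequenced from a SMARTer mRNA library kit, per the labels' protocols. The authors deposited whole-number read counts per gene and FPKM in 1 table, per the file headers. CASAVA 1.8 and TopHat2 2.0.6 are named in the submitters' processing notes, which also give the build mm10, although the identifiers are human. The counting program, annotation and strand setting are not given in the sources used here. FPKM as deposited were checked to be the counts rescaled by length and depth (largest relative deviation 8.54e-06 in 10244 genes) and were used only for levels between genes.

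GENCODE 29 (GRCh38) held 58039 of the 58302 identifiers and gave symbols, types and coordinates. It also showed exons shared with other genes (NDUFA1, NDUFB11, NDUFB8, ATP5ME and ATP5PF among others) and pseudogene copies, whose counts are less certain. Counts were tested in edgeR 4.0.16 (R 4.3.3): filterByExpr, TMM scaling, robust quasi-likelihood F test of siKMT2C against siNC without covariates, Benjamini-Hochberg adjustment over 15063 genes, called at an adjusted p under 0.05. SE is the absolute log2 fold change over the square root of F. CPM used TMM-scaled library sizes. The fit was tested on simulated data.

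The members and lists were chosen with earlier results of these data known. Genes named are every called member, the 4 smallest p and 2 highest FPKM of each complex and of the mitochondrial set, isoform sets, from the other lists every called gene and at most 3 with the smallest p, and KMT2C. A gene that this rule takes is not reported here. Exceptions are said to be so in the text or were added after values were seen. The latter are NDUFV1, NDUFS1, NDUFAF7, NDUFAF4, NDUFA6, CD14, NRF1, GABPA and PPARGC1A. They also include MT-ATP6 and the mitochondrial genes and copies set beside it. Alternatives were RLE size factors, library size alone, scaling without mitochondrial genes, DESeq2 1.42.0, limma-voom 3.58.1, tests without a filter or with a CPM minimum of 1 in 3 libraries, a replicate block, a 1.5-fold minimum (glmTreat), a loess correction for GC content and length (span 0.3), the last with the block, and leaving out each library. Leaving out both replicate 3 libraries was chosen after seeing the data. All 6 samples were used.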

Additional observations from a re-analysis of the deposited data

How the results depend on the processing

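Counts of called genes moved most. Over all genes, 226 were called, 864 with DESeq2, 18 against a 1.5-fold minimum, 1388 with the GC content and length correction, 648 without both replicate 3 libraries, and 16 to 620 with 1 library left out. Of the members, 1 was called, 3 with DESeq2, 0 against the 1.5-fold minimum, 4 with the GC content and length correction (with SDHB, SDHC and MT-ND6 among them), 2 without both replicate 3 libraries, and 0 to 2 with 1 library left out. The cause was not tested.

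Replicate numbers are not said to mark a batch or a pairing. Deviations from the group mean of same-numbered libraries correlated at 0.02, 0.11 and 0.39. The value of the third replicates was the highest of all pairs, while siKMT2C replicate 2 correlated best with siNC replicate 1 (0.32). Deviations within a group are not independent of each other, so these correlations cannot settle whether libraries were paired. With the replicate block 968 genes and 3 members (with ATP5MG and SDHB among them) were called, and with the block and the GC content and length correction 1385 genes and 9 members.

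The nuclear median stayed above 0 (0.06 to 0.14 with 1 library left out), while the mitochondrial median ranged from -0.21 to 0.05, above 0 without siKMT2C replicate 3 or siNC replicate 2. No scaling moved the median of all genes by over 0.1. Of 39 named tested members, 10 changed sign in some setting. With 1 library left out, ATP5F1B ranged from -0.051 to 0.026, ATP5MC3 from -0.10 to 0.15, COX4I1 from -0.0046 to 0.11, COX6A1 from -0.12 to 0.23, MT-CO1 from -0.048 to 0.13, MT-CO2 from -0.086 to 0.12, NDUFA4 from -0.24 to 0.033, NDUFA4L2 from -0.52 to 0.11, NDUFB7 from -0.24 to 0.30 and UQCRQ from -0.019 to 0.064. With library size alone ATP5MC3 was at -0.0094. With the GC content and length correction COX4I1 was at -0.0047, MT-CO1 at -0.035, MT-CO2 at -0.064 and UQCRQ at -0.061. With the block added they were at -0.0059, -0.033, -0.057 and -0.064, and COX6A1 at -0.0007. Without both replicate 3 libraries MT-CO2 was at -0.021, NDUFA4L2 at 0.088 and NDUFB7 at 0.074. In all 10 the value with all libraries was smaller than its SE. With 3 libraries a group, effects of the size of most members cannot be told from 0.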
